A study of Mus musculus with 3 samples.

Results

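The 9 genes described here encode surface receptors by which natural killer (NK) cells read other cells: Ncr1, Klra3, Klra8, Klrb1c, Klrd1, Klre1, Klrg1, Klri2 and Klrk1, of 32285 genes in the count tables. They were chosen by name, as lectin-like receptors of the killer cell families and the natural cytotoxicity receptor of the mouse, and their levels were summed in cells gated on other genes. The study made scRNA-seq libraries from PB leukocytes, 3 in all with 1 for each condition: wild-type BALB/c mice without leukemia (naive), and wild-type BALB/c mice that had received BBC2 SCLL cells, sampled at day 11 (D11, intermediate stage) and day 14 (D14, late stage). BBC2 is a cell line with a pro-B-like phenotype, grown from a leukemia driven by the BCR-FGFR1 fusion kinase, so each leukemic library also held cells of that 1 line. The study's methods describe young adult females, all 3 libraries came from blood after red cell lysis and removal of dead cells, and the number of mice behind each library was not given in the sources used here.

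NK cells carry activating and inhibitory receptors together, and whether a target cell is killed depends on the balance between them. Inhibitory receptors of the Ly49 and CD94/NKG2 families read MHC class I molecules on the target, while activating receptors such as NKG2D and NKp46 read stress-induced or foreign ligands and signal through adaptor proteins that bear activation motifs. Most of the lectin-like receptors are encoded side by side in the NK gene complex.

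In GRCm38 with the GENCODE vM21 annotation, 8 of the 9 genes lay on chromosome 6, between 122270596 and 130337574, and 1, Ncr1, lay on chromosome 7 (chr7:4337724-4345164, plus strand). Klrg1 was the outermost on chromosome 6 (chr6:122270596-122282882, minus strand). Klre1 (chr6:129577905-129585827, plus strand), Klrd1 (chr6:129591782-129598775, plus strand), Klrk1 (chr6:129610323-129623864, minus strand) and Klri2 (chr6:129729041-129740484, minus strand) lay between 129577905 and 129740484. Klrb1c (chr6:128778485-128789215, minus strand), Klra8 (chr6:130115226-130129898, minus strand) and Klra3 (chr6:130323289-130337574, minus strand) flanked them. None of the 9 overlapped another gene of the count tables on either strand. The libraries read the 3′ ends of transcripts. The last 500 bases of each gene's longest protein-coding transcript were therefore compared with the whole transcripts of all other genes. In Klra3, 64.0% of the 31-base words in that stretch also occurred in another gene, and in Klra8 44.5% did, in both cases mostly in other Klra genes and pseudogenes. For Klri2 the share was 11.5%, with genes that included Abcg1, Arl4a and Cep290, and for the other 6 genes it was 0%. For Klri2 only the first gene names in alphabetical order were kept, so whether other Klr genes were among them is not known here. Levels of Klra3 and Klra8 are therefore uncertain as to which Klra gene gave the reads, the more so since the reference is of C57BL/6 and the Ly49 cluster of BALB/c mice is known to hold a different set of Klra genes.

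RefSeq promoters (GRCm38.p6, 250 bases before to 50 bases after a gene's start) were at hand for 6 of the 9 genes: Ncr1, Klra3, Klra8, Klrb1c, Klre1 and Klrk1. The RUNX word TGTGGT, occurred on either strand in 4 of these 6 (Ncr1, Klrb1c, Klre1 and Klrk1) and in 16.9% of all 27025 promoters in the set. The T-box word GGTGTG occurred on either strand in 0 of the 6 and in 19.0% of all promoters, and the ETS word AGGAAG occurred on either strand in Klrb1c alone of the 6 and in 35.1% of all promoters. Matches to different words did not overlap in these 6 promoters. A match is a description of letters, not of a bound site. The promoters of Ncr1 (chr7:4337465-4337764, plus strand) and Klrk1 (chr6:129623815-129624114, minus strand) are shown as those of a natural cytotoxicity receptor and a lectin-like receptor that share the word; capitals mark RUNX words, 5′ to 3′ on the strand of the gene.

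Ncr1: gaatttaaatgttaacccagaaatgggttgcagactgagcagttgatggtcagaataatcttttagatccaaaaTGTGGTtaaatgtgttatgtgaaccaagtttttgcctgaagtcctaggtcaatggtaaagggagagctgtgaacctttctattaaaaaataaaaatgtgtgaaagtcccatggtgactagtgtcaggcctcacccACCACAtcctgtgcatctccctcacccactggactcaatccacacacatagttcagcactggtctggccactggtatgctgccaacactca
Klrk1: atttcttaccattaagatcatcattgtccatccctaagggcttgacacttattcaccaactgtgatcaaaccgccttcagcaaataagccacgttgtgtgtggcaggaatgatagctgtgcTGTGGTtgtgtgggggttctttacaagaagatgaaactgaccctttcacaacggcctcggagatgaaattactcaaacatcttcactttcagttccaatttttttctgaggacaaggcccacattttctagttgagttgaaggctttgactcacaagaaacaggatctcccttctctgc

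The promoters of Klra3 (chr6:130337577-130337876, minus strand) and Klra8 (chr6:130129849-130130148, minus strand) are shown because their likeness mirrors the words shared by their transcripts. In the best local alignment 183 of 217 aligned positions were identical (84.3%), and neither held any of the 3 words.

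Klra3: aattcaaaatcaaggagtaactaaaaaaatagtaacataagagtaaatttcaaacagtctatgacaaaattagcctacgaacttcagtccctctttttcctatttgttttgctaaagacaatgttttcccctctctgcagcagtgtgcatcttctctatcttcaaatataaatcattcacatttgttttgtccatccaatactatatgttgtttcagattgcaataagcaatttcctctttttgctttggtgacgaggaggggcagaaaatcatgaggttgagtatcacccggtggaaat
Klra8: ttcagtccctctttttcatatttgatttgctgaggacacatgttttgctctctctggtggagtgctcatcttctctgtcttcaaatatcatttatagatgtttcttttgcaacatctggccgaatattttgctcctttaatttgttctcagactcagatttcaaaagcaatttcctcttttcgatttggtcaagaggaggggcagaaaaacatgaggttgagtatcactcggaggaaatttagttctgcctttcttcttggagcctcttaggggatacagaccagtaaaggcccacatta

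The 3 libraries held 30362408 (naive), 57640396 (D11) and 65861863 (D14) UMIs, and 3811, 4567 and 4414 barcodes passed the limits of 200 or more genes and no more than 10% of UMIs from mitochondrial genes. NK cells were gated by at least 3 of 8 markers (Nkg7, Gzma, Prf1, Il2rb, Eomes, Txk, Ctsw, Tbx21) and fewer than 2 of 4 T cell markers (Cd3d, Cd3e, Cd3g, Trac), T cells by at least 2 of those 4, and cells with 2 markers of another class were left out. This gave 196, 201 and 55 NK cells and 1202, 269 and 106 T cells in naive, D11 and D14. Among T cells, CD8 cells had a Cd8a or Cd8b1 UMI and no Cd4 UMI, and CD4 cells the reverse. CD8 cells numbered 204, 51 and 35 and CD4 cells 695, 128 and 44, and the remaining T cells were in neither class. NK cells were 5.14%, 4.40% and 1.25% of all kept barcodes, and their median depth was 7748.5, 5349 and 5396 UMIs. Between 3 and 5 kept barcodes were shared between any pair of libraries, and 0 of these were NK or T cells. In the NK sums, T cell markers together stood at 9.05 to 43.3 CPM, B cell markers at 4.46 to 27.1, monocyte markers at 63.7 to 130 and neutrophil markers at 14.0 to 33.2. The 7 monocyte markers together stood at 63.7, 86.0 and 130 CPM in naive, D11 and D14. Csf1r, a defining monocyte marker, was at 0 in the D11 and D14 sums, but the gate had left out cells with 2 monocyte markers. At D14 all 43 monocyte marker UMIs were of Ms4a6c. Hemoglobin transcripts stood at 7684 CPM in naive, 49097 at D11 and 28753 at D14. With ribosomal, mitochondrial and hemoglobin genes left out of the totals, the summed log2 ratios of the 9 genes in NK cells were 0.07 (0.02 to 0.12) at D11 and -0.26 (-0.35 to -0.18) at D14, beside 0.03 and -0.24 with them. The part of the other classes' markers in the results was not tested.

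Levels are given as CPM, the UMIs of a gene scaled to all UMIs of the summed class, with exact Poisson 95% intervals, shares of cells with Clopper-Pearson 95% intervals, and ratios with exact binomial 95% intervals. With 1 library per condition no test between conditions was possible, and these intervals cover counting error only, not the spread between mice or cells. As a description, a gene was taken as 2-fold higher or lower on the scale of log2(CPM + 1), among genes whose mean level reached 20 CPM.

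In naive blood the 9 receptor genes together made up 4864 CPM in NK cells (interval 4756 to 4975) and 139 CPM in T cells (132 to 146), 55.6 CPM in monocytes, 5.50 CPM in neutrophils and 4.34 CPM in B cells. NK cells were thus the class in which all 9 stood highest in this library. At D11 the NK sum was 4954 CPM (4830 to 5081), a log2 ratio to naive of 0.03 (-0.02 to 0.08). At D14 it was 4123 CPM (3907 to 4348), a log2 ratio of -0.24 (-0.32 to -0.16). The summed receptor level per NK cell UMI thus differed from naive by 1.02-fold at D11 and 1.18-fold at D14. NK cells themselves were a smaller share of the kept barcodes at D14. A share of kept barcodes in a library cannot tell fewer NK cells from more barcodes of other kinds.

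**Figure D1:**
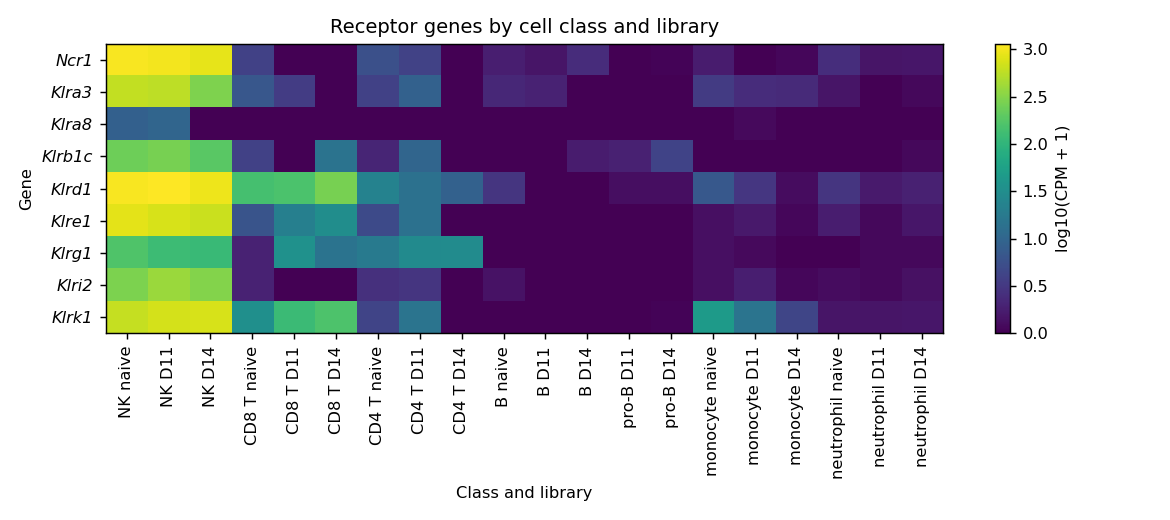
Levels of the 9 receptor genes, as log10(CPM + 1) in color, in UMIs summed per cell class (columns, with the library) for sums of at least 20 cells. All 9 genes are brightest in NK cells in the naive library, Klrd1 and Klrk1 also stand out in CD8 T cells, and Klrk1 in monocytes of the naive library.

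The activating receptors came first. Ncr1, which encodes NKp46, the natural cytotoxicity receptor that pairs with the FcRγ and CD3ζ adaptors, stood at 1062 CPM in naive NK cells, 1003 at D11 and 872 at D14. At D11 the log2 ratio to naive was -0.08 (-0.19 to 0.02), and at D14 -0.28 (-0.47 to -0.10). The D14 value in cells thinned to 2000 UMIs was -0.08 (-0.42 to 0.24), with an interval that included 0. Klrk1, which encodes NKG2D, a receptor for stress-induced ligands, stood at 618, 724 and 739 CPM. It was the one member whose interval lay above naive at both days, by log2 ratios of 0.23 (0.09 to 0.36) and 0.26 (0.05 to 0.46). With 2 of 8 markers required for the gate its D11 interval reached 0 (0.11, -0.02 to 0.25), and without the exclusion of cells with markers of another class so did its D14 interval (0.10, -0.10 to 0.30). Klrb1c, which encodes the NK1.1 receptor NKR-P1C, stood at 238, 268 and 187 CPM. Neither of its intervals against naive left 0, and its D14 level was below its D11 level by a log2 ratio of -0.52 (-0.94 to -0.12). Klra8, annotated as the Ly49H receptor that recognizes a cytomegalovirus protein in C57BL/6 mice, had 12 UMIs in naive, 11 at D11 and 0 at D14. At D14 3 UMIs would have been 9.05 CPM. Reads assigned to Klra8 were thus few in every library, and no fold is given for D14. Which Klra gene of BALB/c mice gave these reads was not tested.

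The receptors that read MHC class I came next. Klra3, annotated as the inhibitory receptor Ly49C, stood at 588 CPM (551 to 627) in naive NK cells, 562 (521 to 606) at D11 and 293 (237 to 357) at D14. Against naive the log2 ratio was -0.06 (-0.21 to 0.08) at D11. It was -1.01 (-1.32 to -0.70) at D14, and D14 against D11 gave -0.94 (-1.26 to -0.63). Klra3 UMIs were found in 59.2% of NK cells in naive (52.0% to 66.1%), 57.2% at D11 (50.1% to 64.2%) and 41.8% at D14 (28.7% to 55.9%). In cells with at least 2000 UMIs, each thinned to 2000 UMIs, these shares were 49.7%, 47.5% and 32.0%. The order thus held at equal depth in those cells, though the intervals at D14 reached into those of the other libraries. The D14 level rested on 97 UMIs in 23 of 55 cells. Klrd1 encodes CD94, the chain that pairs with NKG2 receptors to read Qa-1. It stood at 1053, 1136 and 959 CPM, and the log2 ratios were 0.11 (0.01 to 0.21) and -0.13 (-0.31 to 0.04). Its D11 interval included 0 with 2 of 8 markers required for the gate (-0.0023, -0.11 to 0.10) and in cells thinned to 2000 UMIs (0.00098, -0.20 to 0.20). Transcripts of its NKG2 partners were at 169, 137 and 199 CPM for Klrc1, the inhibitory NKG2A, and 153, 111 and 136 CPM for Klrc2, the activating NKG2C.

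Klre1 encodes a chain that pairs with KLRI1 or KLRI2, and Klri2 encodes the activating one of those partners. Klre1 stood at 849, 737 and 651 CPM, and the log2 ratios were -0.20 (-0.33 to -0.08) and -0.38 (-0.60 to -0.17). In cells thinned to 2000 UMIs both intervals included 0, at -0.06 (-0.29 to 0.18) and -0.27 (-0.67 to 0.11). Klri2 stood at 284, 394 and 305 CPM, and the log2 ratios were 0.47 (0.28 to 0.66) and 0.10 (-0.22 to 0.41). Klri2 was thus highest at D11, and its D14 level lay 0.37 log2 units below D11 (-0.37, interval -0.70 to -0.06). Klri1, the inhibitory partner, stood at 231, 193 and 262 CPM. Klrg1, an inhibitory receptor of mature NK cells and effector T cells that binds cadherins, stood at 164, 122 and 118 CPM. Its log2 ratios were -0.43 (-0.73 to -0.13) and -0.48 (-1.01 to 0.01). The share of NK cells with a Klrg1 UMI was 50%, 36.3% and 40%. In the cells deep enough to be thinned to 2000 UMIs it was 23.3%, 23.5% and 20%. The difference in share was thus not seen at equal depth in those cells. The level ratio at D11 ranged from -0.63 to -0.38 under 11 other settings, thinning among them, with 10 intervals below 0. At D14 it ranged from -0.76 to -0.37, with 3 intervals below 0.

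**Figure D2:**
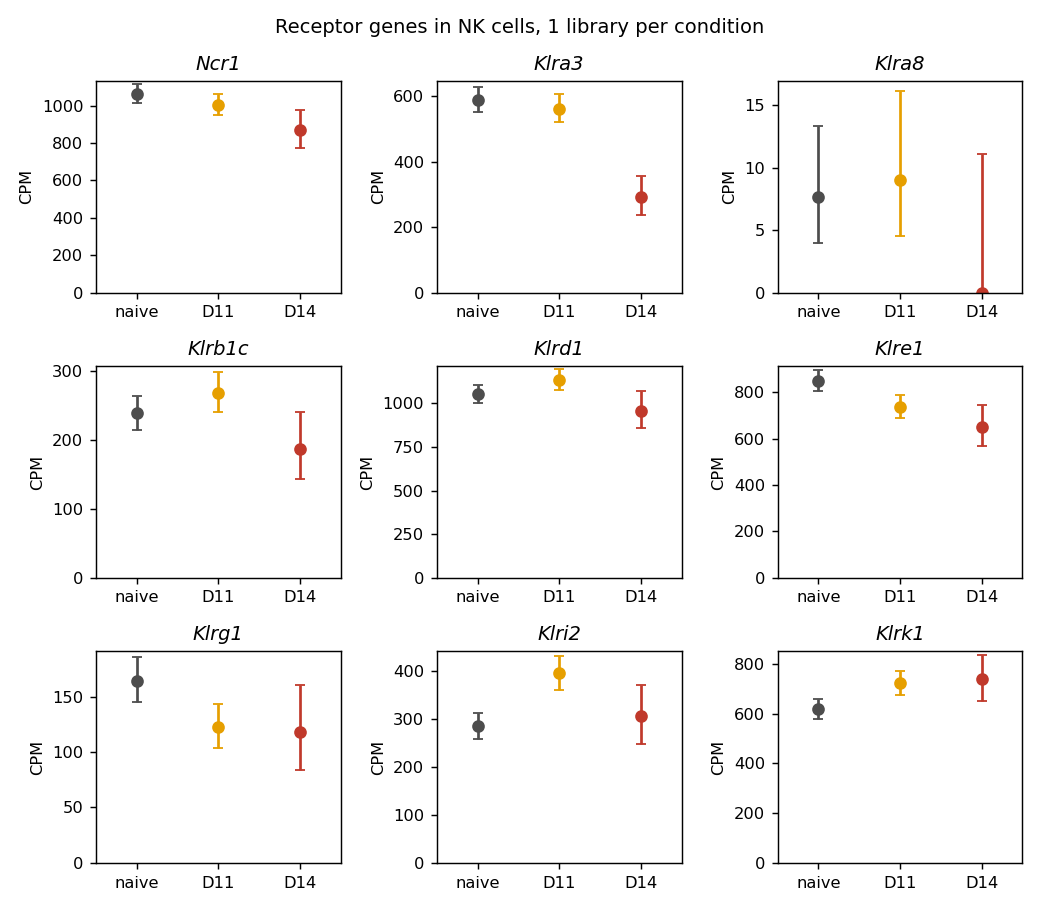
Level of each receptor gene in NK cells (y axis, CPM from 0, with its own scale in each panel) in the naive, D11 and D14 libraries (x axis). Points are sums over 196, 201 and 55 cells and bars are exact Poisson 95% intervals; Klra3 at D14 lies well below the other libraries, and Klrk1 lies above naive at both days.

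None of the 8 members that met the minimum of 20 CPM was 2-fold higher or lower in NK cells at D11, where 0.595% of 6215 genes were higher and 0.853% lower. At D14, 1 of the 8, Klra3, was 2-fold lower, against 4.07% of all genes, and 0 were 2-fold higher, against 2.91%. A count of 1 in 8 is close to that background. On the scale of log2(CPM + 1), the median ratio of the 8 was 0.02 at D11 and -0.32 at D14, and that of all genes -0.05 and -0.02.

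**Figure D3:**
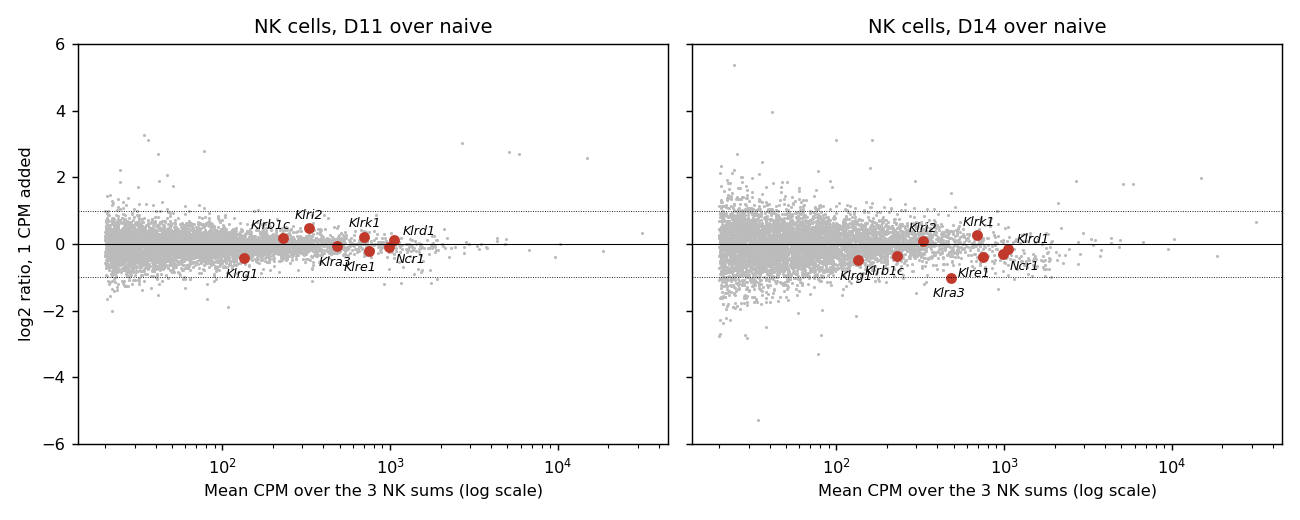
Log2 ratio to naive in NK cells (y axis, 1 CPM added) against the mean level over the 3 NK sums (x axis, CPM, log scale) for 6215 genes (gray), with the 8 members above 20 CPM in red. Dotted lines mark 2-fold; all 8 lie between them at D11 and all but Klra3 at D14.

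Single NK cells held many of these receptors at once. The median number of the 9 genes with a UMI was 6 per NK cell in each library, and at least 5 were found in 91.8% of naive cells (87.1% to 95.3%), 82.6% of D11 cells (76.6% to 87.6%) and 80.0% of D14 cells (67.0% to 89.6%). After thinning to 2000 UMIs, which left out 3, 22 and 5 shallower cells, the median was 5 in each library. The shares were then 50.3%, 60.9% and 52.0%. The lower shares of the leukemic libraries as deposited were thus not seen at equal depth among the cells kept. The part of the cells left out in this was not tested. Ncr1, Klrd1, Klre1 and Klrk1 were found in 87.3% to 97.4% of NK cells in the 3 libraries. Klra3, Klrb1c, Klrg1 and Klri2 were found in part of the cells only, from 36.3% (Klrg1 at D11) to 72.4% (Klrb1c in naive). In B cells, which should lack these receptors, no member was found in more than 1.24% of naive cells, at a median depth of 5964.5 UMIs.

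**Figure D4:**
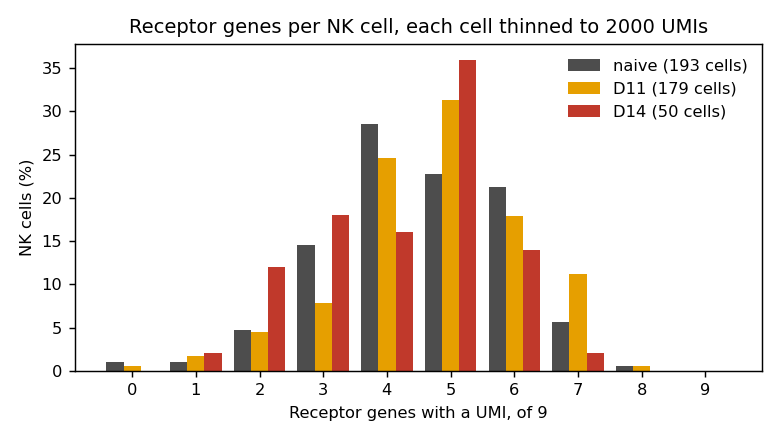
Number of the 9 receptor genes with a UMI in an NK cell (x axis) and the percent of NK cells with that number (y axis). Shown are the 193 naive, 179 D11 and 50 D14 cells with at least 2000 UMIs, each thinned to 2000 UMIs. All 3 libraries center on 4 to 6 genes per cell.

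Klrg1 is known to mark mature NK cells, so NK cells with and without a Klrg1 UMI were compared in each library as a description. In naive blood there were 98 of each, with median depths of 8142 and 7284.5 UMIs. Itgam, the CD11b integrin chain of mature NK cells, stood at 318 CPM in cells with Klrg1 and 197 in cells without it (log2 ratio 0.69, 0.40 to 0.99). Cd27, carried by less mature NK cells, stood at 84.4 and 139 CPM (-0.72, -1.18 to -0.27), and Il7r, the IL-7 receptor chain, at 13.3 and 113 CPM (-3.09, -4.15 to -2.18). At D11 and D14 the Itgam ratio was 0.40 (0.06 to 0.75) and 0.55 (-0.03 to 1.15). For Cd27 it was -0.41 (-0.95 to 0.11) and 0.22 (-1.99 to 2.55), and for Il7r -0.30 (-1.62 to 0.95) and 0.75 (-0.99 to 2.67), so the intervals of both genes included 0 in the leukemic libraries. Ly6c2, which encodes Ly6C, had ratios of -0.07 (-0.84 to 0.72) in naive, -1.43 (-2.19 to -0.72) at D11 and -1.19 (-2.61 to 0.10) at D14. Klri2 was the one member whose interval lay below 0 beside Klrg1 in every library, with log2 ratios of -0.46 (-0.74 to -0.19), -0.63 (-0.91 to -0.35) and -0.83 (-1.45 to -0.23). Klra3 was higher beside Klrg1 at D11 (0.60, 0.38 to 0.83) and D14 (1.20, 0.55 to 1.89), and in naive cells the interval included 0 (0.16, -0.03 to 0.35). Depth differed between these cells at D11 (medians 6979 and 4862 UMIs) and D14 (7255 and 4183 UMIs), and its part in these ratios was not tested.

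Transcripts of the adaptors that carry the signals of these receptors were found in NK cells of all 3 libraries. Tyrobp (DAP12), the partner of activating Ly49 receptors, stood at 1278, 1046 and 832 CPM, and the log2 ratios were -0.29 (-0.39 to -0.19) and -0.62 (-0.80 to -0.44). Hcst (DAP10), the partner of NKG2D, stood at 384, 265 and 277 CPM, and the log2 ratios were -0.53 (-0.73 to -0.34) and -0.47 (-0.80 to -0.15). Klrk1 was thus above naive at both days while Hcst was below it. Fcer1g (FcRγ) stood at 685, 700 and 754 CPM and Cd247 (CD3ζ) at 397, 410 and 449 CPM, and the intervals of both included 0 at both days. None of the 4 adaptors was past 2-fold.

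Of 26 other NK receptors listed, 25 were in the tables and 19 met the minimum. At D11, 1 was 2-fold higher (Klra4, annotated as another activating Ly49 gene) and 1 lower (Slamf7). At D14, 2 were higher (Klra4 and Tigit) and 2 lower (Slamf6 and Cd160). Over all 6215 genes, 0.595% were higher and 0.853% lower at D11, and 2.91% and 4.07% at D14. These receptor names were chosen after their values were seen. Reads assigned to Klra4 stood at 22.9, 56.5 and 51.3 CPM. Like Klra3, Klra4 belongs to a family with shared sequence, and which Klra gene of BALB/c mice gave these reads was not tested. Tigit stood at 12.7, 13.9 and 42.2 CPM and met the minimum through its D14 level. Cd160 at D14 rested on 7 UMIs, and its log2 ratio of -1.04 had an interval that included 0 (-2.40 to 0.08). The 4 of highest level were Cd244a, the 2B4 receptor (317, 287 and 308 CPM), Klrb1a (257, 256 and 244 CPM), Cd226, the DNAM-1 receptor (287, 219 and 223 CPM), and Klrb1f (224, 247 and 217 CPM). Cd226 lay below naive at both days, by log2 ratios of -0.39 (-0.61 to -0.17) and -0.36 (-0.74 to -0.0034), and the intervals of the other 3 genes included 0.

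Genes of NK function were read beside the receptors. Over all 6215 genes in NK cells, 0.595% were 2-fold higher and 0.853% lower at D11, and 2.91% and 4.07% at D14. Counts of 1 gene in the short lists below are close to that D14 background. Of 12 cytotoxic effectors and chemokines at or above the minimum, 0 were 2-fold higher or lower at D11, and at D14 1 was higher and 1 lower. The higher one was Gzmb, a granzyme of activated killer cells, at 147, 193 and 549 CPM (log2 ratio 1.91 at D14, 1.62 to 2.19), and the lower one was the chemokine Ccl3, at 65.6, 51.6 and 21.1 CPM (-1.64, -2.99 to -0.54). The 4 of highest level, of which Gzma, Nkg7 and Prf1 were also used for the gate, were Ccl5 (10789, 8223 and 9633 CPM), Gzma (6914, 6072 and 7278), Nkg7 (1569, 1447 and 1752) and Prf1, perforin (580, 603 and 1001). Of 11 transcription factors at or above the minimum, 0 were past 2-fold at D11. At D14 Irf8, a factor of NK responses, was higher at 275, 387 and 793 CPM (1.53 at D14), and Tcf7, a factor of early NK development, was lower at 127, 93.4 and 12.1 CPM (-3.40). Zeb2 stood at 1397, 1220 and 1635 CPM, Id2 at 573, 535 and 540, and Eomes, also a gate marker, at 380, 348 and 365.

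Of 9 maturation markers at or above the minimum, 0 were higher at either day, 1 was lower at D11 (Il7r) and 2 were lower at D14. Over all 6215 genes, 0.595% were higher and 0.853% lower at D11, and 2.91% and 4.07% at D14. Cd27 stood at 110, 107 and 27.1 CPM (-2.02 at D14), and Cd7, found on less mature cells, at 191, 161 and 42.2 CPM (-2.18). Itga2, the CD49b integrin chain of circulating NK cells, stood at 832, 652 and 618 CPM, Spn (CD43) at 289, 245 and 326, and Itgam at 261, 233 and 326.

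In T cells the 9 genes together stood at 139 CPM in naive, 200 at D11 and 229 at D14, and the log2 ratios were 0.52 (0.37 to 0.68) and 0.72 (0.50 to 0.93). The make-up of the T gate also differed, with CD8 cells 204 of 1202, 51 of 269 and 35 of 106. The 9 genes stood at 193, 331 and 485 CPM in CD8 and 55.8, 89.1 and 36.3 CPM in CD4 cells. The part of this make-up in the summed and single-gene T cell ratios was not tested. NK cells exceeded T cells by 35.0-fold, 24.8-fold and 18.0-fold. For single members that met the minimum, the NK level exceeded the T level by 3.59-fold (Klrg1 at D11) to at least 256-fold (Ncr1 at D14, where T cells had 0 UMIs), and each of the 8 was 2-fold higher in all 3 libraries, against 10.6%, 8.2% and 11% of all genes in naive, D11 and D14. None was 2-fold lower, against 6.42%, 6.72% and 9.49%. The members met the minimum through their NK level, so that count is no support.

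The T gate also held cells with NK markers. In naive blood 224 of 1202 T cells had at least 3 of the 8 NK markers, and they held 79.5% of the members' UMIs in T cells; at D11 and D14 54 of 269 and 32 of 106 such cells held 67.1% and 66.2%. In naive blood 17 T cells with doublet scores among the highest, with a median of 13386 UMIs, held 327 of 1574 member UMIs (20.8%). At D11 only 2 T cells had such scores, with 0 member UMIs, and at D14 no T cell did. Among T cells with fewer NK markers the 9 genes together stood at 36.8, 87.3 and 122 CPM, log2 ratios to naive of 1.24 (0.95 to 1.54) and 1.73 (1.33 to 2.11). This split was chosen after seeing the data. The T cell difference was thus larger without those cells. The count of NK markers in a cell also depends on its depth. Median depths in naive, D11 and D14 were 10642, 7987.5 and 9709.5 UMIs in T cells with at least 3 NK markers. In the other T cells they were 8844, 7102 and 7310. The part of depth in this split was not tested. Ncr1, Klra3 and Klri2 lay almost wholly in the cells with NK markers, with 96.2% to 100% of their naive T cell UMIs there, and had 0 UMIs in T cells at D14. Klrg1 was the member least tied to them, at 33.8%, 26.4% and 18.5%.

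Klrk1, Klrg1 and Klrd1 were the 3 members whose mean level in T cells reached 20 CPM. Klrk1 stood at 19.3 CPM (16.9 to 22.1) in naive T cells, 55.8 (46.2 to 66.8) at D11 and 79.6 (62.0 to 100.55) at D14, log2 ratios of 1.53 (1.19 to 1.86) and 2.04 (1.63 to 2.43). Klrg1 stood at 12.3, 34.0 and 30.7 CPM, log2 ratios of 1.47 (1.04 to 1.89) and 1.32 (0.67 to 1.92). Klrd1 stood at 64.2, 58.6 and 102 CPM, log2 ratios of -0.13 (-0.42 to 0.15) and 0.67 (0.34 to 0.99). At both days 2 of these 3 were 2-fold higher, against 3.22% of 6058 genes at D11 and 4.54% at D14, but both met the minimum through their leukemic levels, so the count is no support. None was 2-fold lower, against 0.677% and 1.32%.

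Among T cells classed as CD8 or CD4, the division set Klrk1 and Klrd1 apart from Klrg1. T cells in neither class also held member UMIs. Of 219, 118 and 70 Klrk1 UMIs in T cells of naive, D11 and D14, 68, 48 and 47 lay in CD8 and 21, 14 and 0 in CD4 cells. NKG2D is known as a costimulatory receptor of CD8 T cells, where it pairs with DAP10. Klrk1 in CD8 T cells stood at 32.3 CPM (25.05 to 40.9) in 204 naive cells, 118 (87.4 to 157) in 51 D11 cells and 158 (116 to 211) in 35 D14 cells. The log2 ratios to naive were 1.88 (1.31 to 2.43) and 2.30 (1.73 to 2.85). Klrk1 UMIs were found in 14.7% of CD8 T cells in naive (10.1% to 20.3%), 33.3% at D11 (20.8% to 47.9%) and 37.1% at D14 (21.5% to 55.1%), and thinned to 2000 UMIs in 3.43%, 16.0% and 17.1%. In CD4 T cells Klrk1 stood at 3.19 and 13.9 CPM in naive and D11 and had 0 UMIs in 44 cells at D14, so CD8 exceeded CD4 cells by 10.1-fold, 8.55-fold and at least 20.4-fold. Hcst, its adaptor, stood at 308, 257 and 337 CPM in CD8 T cells. Tyrobp stood there at 12.3, 4.94 and 3.37 CPM, from 26, 2 and 1 UMIs. At D11 and D14 3 UMIs would have been 7.41 and 10.1 CPM, so those 2 values lie below that floor.

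Klrd1 in CD8 T cells stood at 142 CPM (126 to 159) in naive, 156 (120 to 199) at D11 and 270 (214 to 336) at D14. The log2 ratios were 0.13 (-0.28 to 0.53) and 0.93 (0.55 to 1.29). Its share of cells was 59.8%, 54.9% and 62.9%, with wide overlap of the intervals. In CD4 T cells Klrd1 stood at 21.4, 12.9 and 7.78 CPM. The NKG2A partner Klrc1 stood at 9.49, 14.8 and 37.1 CPM in CD8 T cells, from 20, 6 and 11 UMIs. Klre1 in CD8 T cells had 11, 8 and 9 UMIs, and at D11 its 8 UMIs came from 2 cells.

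Klrg1 had the opposite division in naive blood, with 114 UMIs in CD4 T cells (17.3 CPM) and 2 in CD8 T cells (0.949 CPM). At D11 it had 28 and 14 UMIs (27.7 and 34.6 CPM) and at D14 11 and 4 UMIs (28.5 and 13.5 CPM), and the CD8 to CD4 ratio had intervals that included 0 on the log2 scale at both days. Since KLRG1 is also carried by regulatory T cells, Foxp3, their defining factor, was read in T cells with and without a Klrg1 UMI, a choice made after the values were seen. Foxp3 UMIs were found in 16 of 31 T cells with Klrg1 in naive blood (51.6%) and in 6.83% of the 1171 without it. At D11 they were in 12 of 20 (60%) and 13.7%, and at D14 in 5 of 7 (71.4%) and 14.1%. The Foxp3 share among T cells without Klrg1 thus also differed between libraries. The part of this make-up in the Klrg1 levels of T cells was not tested. Of T cells with a Klrd1 UMI, 4 of 260, 0 of 50 and 0 of 27 had a Foxp3 UMI, against 9.77%, 21.0% and 24.1% of those without. Of T cells with a Klrk1 UMI, 3 of 61, 1 of 46 and 0 of 19 had one, against 8.15%, 20.2% and 21.8% of those without.

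**Figure D5:**
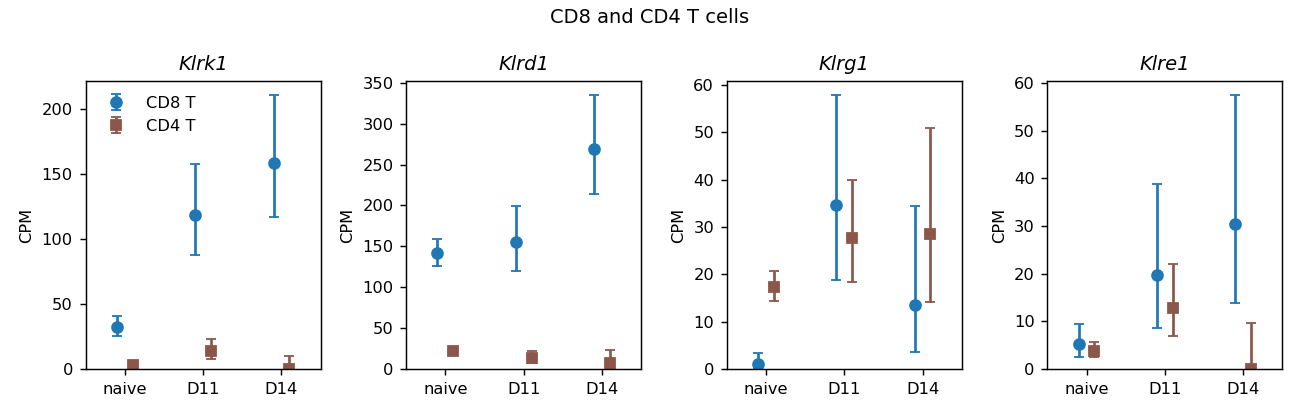
Levels of Klrk1, Klrd1, Klrg1 and Klre1 (y axis, CPM from 0, with its own scale in each panel) in CD8 T cells (blue circles) and CD4 T cells (brown squares) of the naive, D11 and D14 libraries (x axis). Bars are exact Poisson 95% intervals; Klrk1 in CD8 T cells lies higher at D11 and D14 than in naive, with intervals that do not meet that of naive.

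Outside lymphocytes, Klrk1 was the one member of some level. In monocytes of naive blood it had 132 UMIs (45.6 CPM, 38.1 to 54.1) in 71 of 271 cells (26.2%), at D11 69 UMIs (13.9 CPM, 10.8 to 17.6) in 51 of 438 cells (11.6%), and at D14 26 UMIs (3.37 CPM, 2.20 to 4.93) in 18 of 678 cells (2.65%). The log2 ratios to naive were -1.71 (-2.15 to -1.28) and -3.76 (-4.43 to -3.14). Klrd1 was seen there too, with 17, 10 and 2 UMIs and log2 ratios of -1.54 (-2.83 to -0.33) and -4.50 (-7.66 to -2.43). The make-up of the monocyte class also differed between the libraries. It was read from 4 markers of classical monocytes (F13a1, Fn1, Ly6c2 and Ccr2) and 4 of non-classical monocytes (Treml4, Ace, Cd300e and Spn). In monocytes without a Klrk1 UMI the classical markers together stood at 3118, 2844 and 983 CPM, and the non-classical at 666, 768 and 1269 CPM. In monocytes with a Klrk1 UMI they stood at 2819, 3087 and 2129 CPM, and at 533, 630 and 880 CPM. The part of this make-up in the Klrk1 and Klrd1 values was not tested. Median depths of monocytes were 10556, 10545 and 9879.5 UMIs, and thinned to 2000 UMIs the shares were 6.77%, 2.07% and 0.894%. None of these Klrk1-bearing monocytes held 2 of the NK markers. The monocyte gate had already left out cells with 3 or more of them, so that count is no support. In B cells of the same 3 libraries Klrk1 had 0 UMIs in 402, 308 and 124 cells, and in neutrophils 2 to 3 UMIs per library, so the monocyte reads in naive and D11 were above the level in classes that should lack the gene. Tyrobp stood at 2064, 2026 and 1513 CPM in monocytes and Hcst at 61.8, 59.6 and 68.5 CPM.

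Klrb1c UMIs were found in 64 of 721 pro-B-like cells at D14 (8.88%, 6.90% to 11.2%), at 3.09 CPM, and in 2 of 104 at D11. These cells were deep, with a median of 31186 UMIs at D14, and thinned to 2000 UMIs 0.283% held one. In B cells at D14 Klrb1c had 1 UMI in 124 cells, and the log2 ratio of pro-B-like to B cells was 2.11 with an interval from -0.42 to 7.43, so a difference between the classes was not detectable at this depth.

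Ligands of these receptors were read in pro-B-like cells, gated by at least 2 of Igll1, Vpreb1, Dntt and Rag1, of which naive held 1, D11 104 and D14 721. Ulbp1, which encodes the NKG2D ligand MULT1, stood at 117 CPM (105 to 129) in pro-B-like cells at D11 and 104 (100 to 109) at D14. B cells of the same libraries stood at 12.3 and 56.0 CPM, log2 ratios of 3.24 (2.65 to 3.88) and 0.90 (0.57 to 1.24), and in the other classes and libraries Ulbp1 stood between 0.250 CPM (naive neutrophils) and 56.8 CPM (CD8 T cells at D11). Of other NKG2D ligands, H60b stood at 13.8 and 13.4 CPM and Raet1e at 16.0 and 20.5 CPM. H2-T23, which encodes Qa-1, the ligand of CD94/NKG2, stood at 15.4 (11.4 to 20.3) and 31.1 CPM (28.9 to 33.5) in pro-B-like cells, below every other class, where it ranged from 58.2 (B cells at D14) to 248 CPM (CD4 T cells at D11). The class I genes H2-K1 and H2-D1 stood at 295 and 769 CPM at D11, log2 ratios to B cells of -0.88 (-1.01 to -0.75) and -0.93 (-1.004 to -0.849), and at 499 and 1034 CPM at D14, log2 ratios of 0.11 (-0.01 to 0.22) and 0.09 (0.01 to 0.17). Clec2d, which encodes a ligand of an NKR-P1 receptor other than the member Klrb1c, stood at 24.3 and 32.0 CPM. Cdh1 (E-cadherin), the ligand of KLRG1, had 0 UMIs at D11 and 1 at D14. CPM is a share of UMIs, not an amount per cell. At D11 and D14 median depth was 29073 and 31186 UMIs in pro-B-like cells and 5501 and 7579 in B cells. H2-T23 had 50 UMIs in 104 pro-B-like cells and 400 in 308 B cells at D11. At D14 it had 725 UMIs in 721 and 81 in 124 cells. H2-K1 at D11 had 960 and 1100 UMIs. Levels per cell were not tested.

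Over 23 sums of class and library with at least 20 cells, the genes whose levels followed the summed members most closely, of 6829 with at least 50 CPM in some sum, were Gzma (Pearson r of log2(CPM + 1) 0.955), Serpinb9 (0.952), Ccl5 (0.948), Nkg7 (0.945) and Prf1 (0.941). Gzma, Nkg7 and Prf1 are markers of the NK gate, and CD4 and CD8 T cells are part of the T cell sums, so the 23 sums are not independent. Serpinb9, which encodes an inhibitor of granzyme B that protects killer cells from their own granules, stood at 178, 225 and 274 CPM in NK cells and 10.4, 9.45 and 13.6 CPM in T cells.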

How the data were processed

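PB leukocytes of 3 libraries, 1 per condition, were measured with 10x 3′ v3 reagents. The authors deposited raw counts, 1 UMI count for each gene and barcode. Per the file headers they were written by Cell Ranger 5.0.1, and the submitters' processing notes name Cell Ranger 7.1.0 and mm10. Barcodes under 200 genes or over 10% of UMIs from mitochondrial genes were dropped, and the rest were classed by marker gates that use none of the 9 genes. UMIs were summed per class and library and divided by the class total (CPM). Intervals are exact (scipy 1.17.1), at 95%, and cover counting error only. A fold against 0 UMIs was computed against 3 UMIs. The 9 genes, the gates and the lists were chosen with earlier results of these data known. The text names all 9 genes, up to 4 genes of each list by mean level and the 5 genes most like the summed members. Other list genes past 2-fold, and Ly6c2, were named after their values were seen. One list gene is not reported here. Doublets were not removed from the main values, and Scrublet (scanpy 1.11.5) was an alternative, as was TMM (edgeR 4.0.16). Positions come from GENCODE vM21 and promoters from RefSeq. Proteins were not used here.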

Additional observations from a re-analysis of the deposited data

Results flagged for a closer look

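A pair of members had intervals on opposite sides of 0 in NK and T cells at D11. The difference between the classes was not tested. Klre1 had a log2 ratio of D11 over naive of -0.20 (-0.33 to -0.08) in NK cells and 0.89 (0.36 to 1.40) in T cells. Thinned to 2000 UMIs, the NK cell value was -0.06 (-0.29 to 0.18), with an interval that included 0. The T cell value rested on 43 UMIs in 8 cells, 41 of which lay in T cells with at least 3 NK markers. Klrg1 had a log2 ratio of -0.43 (-0.73 to -0.13) in NK cells and 1.47 (1.04 to 1.89) in T cells. The T cell value rested on 72 UMIs in 20 cells, 12 of which had a Foxp3 UMI.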

How the results depend on the processing

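No paired analysis was possible because each condition is 1 library and no test was run. Of the log2 ratios of the summed members under alternatives, 58 moved by less than their counting interval and 17 moved further. In NK cells the D11 ratio, whose interval included 0, was -0.087 (-0.14 to -0.04) with 2 of 8 NK markers required and lay above 0 with its interval in 6 other settings, at up to 0.07. The D14 ratio in NK cells was -0.40 without the exclusion of cells with markers of another class. In T cells the D11 ratio was 0.88 with Scrublet doublets removed, 0.71 as a mean of per-cell CPM and 1.24 without T cells that held 3 NK markers. The D14 ratio was 1.02, 1.05 and 1.73 under the same settings and 0.47 without the exclusion. The NK to T ratio in naive blood was 5.44 with doublets removed, 4.94 with TMM factors, 4.97 without ribosomal, mitochondrial and hemoglobin genes, 5.39 as a mean of per-cell CPM and 7.04 without T cells that held 3 NK markers. At D11 it was 4.48 with 2 of 8 markers and 5.83 without those T cells, and at D14 5.08 without them. Leaving out those T cells and thinning were chosen after seeing the data. TMM moved all T cell ratios at D14 by -0.17, and other classes and days by at most 0.05. Of the ratios of single members in NK cells, 177 moved by less than their interval, 9 moved further and 1 whose interval excluded 0 changed sign, Klrd1 at D11, which was -0.0023 with 2 of 8 markers. Members with intervals that included 0 also changed sign: Ncr1 at D11 (0.05), Klra3 at D11 (0.08) and Klrb1c at D14 (0.03) after thinning, and Klri2 at D14 (-0.02 without the exclusion and -0.08 as a mean of per-cell CPM). Klra3 at D14 ranged from -1.28 to -0.95 and Klrk1 from 0.11 to 0.34 at D11 and from 0.10 to 0.47 at D14. With 55 NK and 35 CD8 T cells at D14, the counts limit single members there most.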
